A study of Helianthus annuus with 180 samples.

Results

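The genes described here are 150 sunflower (Helianthus annuus, line HA412-HO) genes that were similar on both sides of a bending stem early in phototropism and were higher on the lit side late in the experiment. They were chosen from the deposited CPM values (read counts scaled to library size) of the phototropism experiment. For each gene and time, d was the log2 of the ratio of the mean on the shaded side to the mean on the lit side, with 1 CPM added to each mean, so that negative values are higher on the lit side. Of 32389 genes in the CPM table, 20726 averaged 5 CPM or more, and 10632 of those had d within 0.3 of 0 at both ZT4 and ZT7. ZT, Zeitgeber Time, counts hours from lights on. The 150 genes with the lowest mean of d at ZT15 and ZT18 were kept. Side differences at ZT4, ZT7, ZT15 and ZT18 therefore define these genes and are given below as descriptions without a test. The last genes inside the limit, Ha412HOChr13g0608491 and Ha412HOChr07g0321181, each had a mean d of -0.41, as did the first genes outside it, Ha412HOChr14g0683311 and Ha412HOChr12g0570881.

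The study compared gene expression across stems that bend towards a blue light in a growth chamber with stems that follow the sun outdoors. In the chamber experiment, 2-week-old wild-type HA412-HO plants grown in 16 h of light and 8 h of dark were placed before blue light from 1 direction from ZT3, and stem peels were taken from the shaded and the lit side at ZT3, 4, 5, 7, 9, 12, 15, 18 and 21. Each side and time had 6 libraries, each made from 2 pooled plants. In the field experiment, seedlings of the same line were transplanted outdoors and peels were taken from the east and the west side every 4 h over 2 days, with 3 libraries for each side, time and day (72 in all). The days were combined, giving 6 libraries for each side and time of day. No mutant or untreated control plants enter these comparisons, and the chamber libraries at ZT3 were from the start of the blue light. Each peel holds several tissues, so fewer cells of a type and less RNA per cell cannot be told apart. Libraries held 4485611 to 28394943 estimated counts (median 11119560) in the phototropism experiment and 5074975 to 30834562 (median 16615264) in the field.

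In phototropism, blue light is perceived by phototropin receptor kinases, and auxin comes to be higher on the shaded flank, where cells elongate faster and turn the stem towards the light. Bending is later followed by straightening, in which growth across the stem is rebalanced. In the field, stems of young sunflowers turn west by day and back east at night, so the faster-growing side changes between day and night. Cell elongation depends on loosening of the primary wall by proteins such as expansins and on the synthesis and trimming of wall polysaccharides. Of the 150 genes, 85 had an Arabidopsis homolog in the annotation used, and the gene names and roles below are those of the Arabidopsis homologs, not tested in sunflower.

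The side difference of the 150 genes grew through the afternoon and was still present at the last time point. The median d was -0.03 at ZT3 and 0.00 at ZT5, times the choice did not use, and it was -0.20 at ZT9, -0.32 at ZT12 and -0.38 at ZT21. Over all 20726 genes averaging 5 CPM or more the median d lay between -0.01 and 0.03 at every time. At the times that defined the genes, the median d was -0.52 at both ZT15 and ZT18, and 0.04 and -0.12 at ZT4 and ZT7. The number of the 150 genes with d below 0 was 90 at ZT3, 74 at ZT5, 121 at ZT9, 141 at ZT12 and 145 at ZT21.

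**Figure D1:**
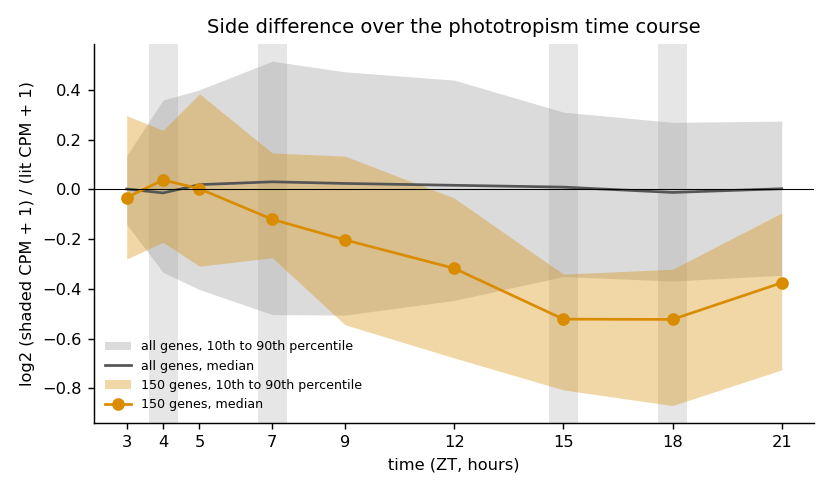
Side difference d (log2 of shaded over lit mean CPM, 1 CPM added) against hours from lights on, for the 150 genes and for all 20726 genes averaging 5 CPM or more. The median of the 150 genes stays near 0 until ZT5, reaches -0.52 at ZT15 and ZT18, the times used to choose the genes, and is -0.38 at ZT21.

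The level of the genes moved apart on both sides. A level for each library was taken from log2 CPM, with 1 CPM added, after subtracting each gene's mean over all phototropism libraries. The level is the median of these values over the 150 genes. On the lit side its median over 6 libraries was -0.03 at ZT3, and from ZT9 through ZT12, ZT15 and ZT18 to ZT21 it was 0.11, 0.18, 0.29, 0.30 and 0.33. On the shaded side the median was -0.01 at ZT3, and over the same later times -0.08, -0.19, -0.25, -0.24 and -0.10. At ZT21 the lit libraries lay between 0.22 and 0.40 and the shaded libraries between -0.17 and -0.02, so the sides did not overlap. The highest group mean on the lit side fell at ZT21 for 40 of the 150 genes and at ZT18 for 26, beside 7.43% and 8.34% of the 10632 genes that were within 0.3 of 0 early. On the shaded side it fell at ZT3 for 33 genes (beside 15.5% of the 10632) and at ZT21 for 27 (beside 10.2%), and at ZT15 for 5 and ZT18 for 2 (beside 14% and 9.63%). ZT15 and ZT18 were used by the choice.

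**Figure D2:**
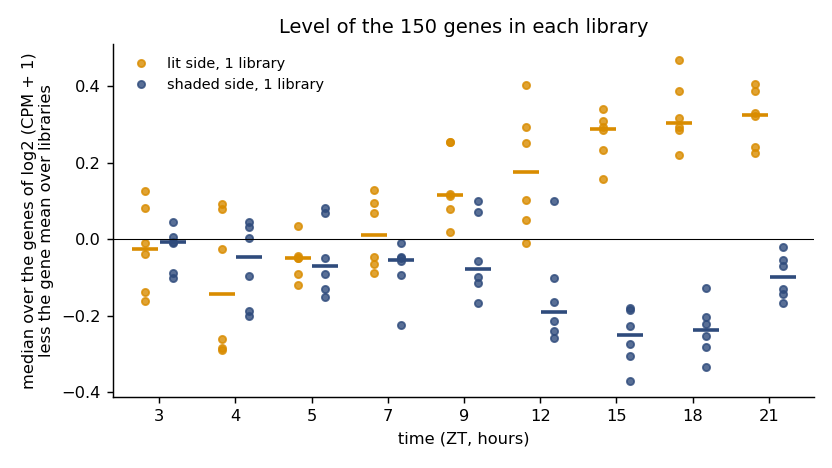
Median level of the 150 genes in each library against hours from lights on, with the lit and the shaded side as separate points. Values are log2 CPM with 1 CPM added, each gene centred on its mean over all phototropism libraries. A dash marks each group median. The sides overlap at ZT3 and are apart at ZT21, where the lit libraries sit between 0.22 and 0.40 and the shaded ones between -0.17 and -0.02.

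The first 3 genes by side difference at ZT15 and ZT18 are described here, and the PIN5 homolog, a disease resistance gene and an RCC1 repeat gene, also among the first 10, are described below. Ha412HOChr01g0003611, a homolog of HMT2, which transfers a methyl group to homocysteine to form methionine, stood first. Its lit libraries at ZT18 ranged from 16.2 to 33.2 CPM (median 21.5) and its shaded libraries from 3.21 to 5.94 CPM (median 5.20), a 4.58-fold ratio of means. The lit values were all above the shaded ones, whereas at ZT3 both sides lay in the same range, 3.40 to 8.77 CPM (median 7.17) on the lit side and 4.45 to 8.40 CPM (median 6.79) on the shaded side.

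The second gene, Ha412HOChr06g0246541, is a homolog of the cytochrome P450 CYP706A4. Its lit libraries at ZT15 held 13.8 to 21.9 CPM (median 15.5) and its shaded libraries 4.30 to 12.4 CPM (median 6.58), without overlap. At ZT18 both sides were lower, 2.67 to 11.1 CPM (median 7.01) against 0.738 to 2.97 CPM (median 1.55), and the ranges overlapped. Ha412HOChr06g0246551 (a CYP76C2 homolog) and Ha412HOChr06g0246591 (no homolog listed) have neighbouring identifiers and are also among the first 10. In all, 13 of the 150 genes lie within 100 identifier units of another of them, in 8 pairs. One of these pairs shares its Arabidopsis homolog. Where neighbours are near-identical, 50-base reads can be split between them, and the sequence identity of these genes was not checked.

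Ha412HOChr08g0348621, which came next, is a homolog of the purple acid phosphatase PAP3, an enzyme that cleaves phosphate esters. At ZT15 its lit libraries held 61.5 to 104.7 CPM (median 77.2) and its shaded libraries 11.9 to 49.2 CPM (median 42.3), without overlap. At ZT18 the ranges were 40.8 to 86.0 CPM (median 60.8) and 8.93 to 54.4 CPM (median 23.99), which overlapped.

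edgeR's quasi-likelihood test was applied to the side differences of 32644 genes, with a gene called at a Benjamini-Hochberg adjusted p below 0.05. At ZT21, the last time and one that the choice did not use, 24 of the 150 genes were called higher on the lit side and none on the shaded side. This is 16.0% of them, beside 4.03% of all genes tested called higher on the lit side and 2.19% in the opposite direction. Among the 10632 genes within 0.3 of 0 early, 0.875% were called higher on the lit side. The median log2 difference, shaded minus lit, was -0.38 for the 150 genes and 0.01 for all genes tested. At an unadjusted p below 0.05, 75 of the 150 were higher on the lit side and 0 on the shaded side, and DESeq2 called 31 and 0. Same-numbered libraries of the sides deviated together, and with the replicate number as a block 91 were called higher on the lit side (60.7%, beside 9.48% of all genes) and 0 on the shaded side. The lit and shaded libraries did not overlap, with the lit side higher, for 19 of the 150, beside 4.2% of the 20726 genes.

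**Figure D3:**
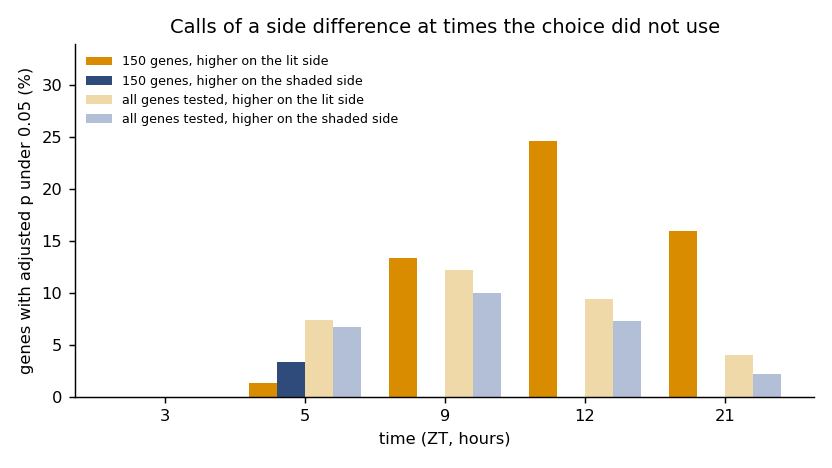
Percentage of the 150 genes, and of all genes tested, called higher on the lit or on the shaded side (adjusted p below 0.05, edgeR). The times are those that did not enter the choice, in hours from lights on, and the replicate block was not used. The numbers of the 150 genes called on the lit side are 0 at ZT3, 2 at ZT5, 20 at ZT9, 37 at ZT12 and 24 at ZT21.

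The strongest differences at ZT21 were in the genes already described. HMT2 (Ha412HOChr01g0003611) held 12.4 to 35.2 CPM (median 15.8) on the lit side and 3.48 to 9.01 CPM (median 5.35) on the shaded side, without overlap. Its log2 difference, shaded minus lit, was -1.68 ± 0.28 (SE, adjusted p = 4.48e-06, edgeR). PAP3 (Ha412HOChr08g0348621) held 36.4 to 100.2 CPM (median 68.7) against 13.95 to 35.4 CPM (median 30.5), also without overlap, with a difference of -1.16 ± 0.26 (adjusted p = 0.00123, edgeR). The remaining 8 of the 10 largest differences ranged from -0.78 to -1.13. Among them were Ha412HOChr16g0771471, without a homolog, with 32.1 to 51.7 CPM (median 43.7) against 18.9 to 29.3 CPM (median 26.5) and a difference of -0.81 ± 0.14 (adjusted p = 1.05e-05, edgeR).

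At ZT12, 37 of the 150 genes were called higher on the lit side (24.7%, beside 9.39% of all genes and 3.99% of the 10632) and 0 on the shaded side (7.31% of all genes). The median log2 difference was -0.35, beside -0.03 over all genes. At an unadjusted p below 0.05, 65 were higher on the lit side and 0 on the shaded side, DESeq2 called 39 and 0, and the replicate block 79 (52.7%, beside 17.3% of all genes) and 0. The sides did not overlap, with the lit side higher, for 5 of the 150, beside 5.19% of the 20726 genes. Without replicate 2 the lit count was 24. PAP3 was the clearest of the genes with a known homolog, with 31.04 to 94.9 CPM (median 78.6) on the lit side and 16.8 to 41.6 CPM (median 28.6) on the shaded side. The ranges overlapped, and the difference was -1.32 ± 0.26 (SE, adjusted p = 0.000108, edgeR).

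At ZT9, 20 of the 150 genes were called higher on the lit side (13.3%, near the 12.2% of all genes but above the 5.67% of the 10632) and 0 on the shaded side (10% of all genes and 4.38% of the 10632). The counts at an unadjusted p below 0.05 were 35 and 2. DESeq2 called 23 and 0. The replicate block called 55 on the lit side (36.7%, beside 19% of all genes) and 3 on the shaded side (2.0%, beside 17.7%). Without replicate 2 the count was 9 and without replicate 6 it was 10. PAP3 held 34.6 to 55.8 CPM (median 46.5) on the lit side and 13.3 to 27.7 CPM (median 23.9) on the shaded side, without overlap, a difference of -1.05 ± 0.26 (adjusted p = 0.0015, edgeR). For all 150 genes the sides did not overlap, with the lit side higher, in 3, beside 7.71% of the 20726 genes.

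At ZT5, 2 genes were called higher on the lit side (1.33%) and 5 on the shaded side (3.33%), below the 7.36% and 6.75% of all genes tested and near the 3.24% and 3.28% of the 10632. The replicate block called 10 and 15 (6.67% and 10%, beside 13.3% and 13.1% of all genes). Without replicate 4 the total was 4. At ZT3, when the blue light began, none was called on either side (edgeR and DESeq2), beside 0.00306% of all genes on the lit side and 0% on the shaded side. At an unadjusted p below 0.05, 3 of the 150 differed, and the replicate block also called 0.

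**Figure D4:**
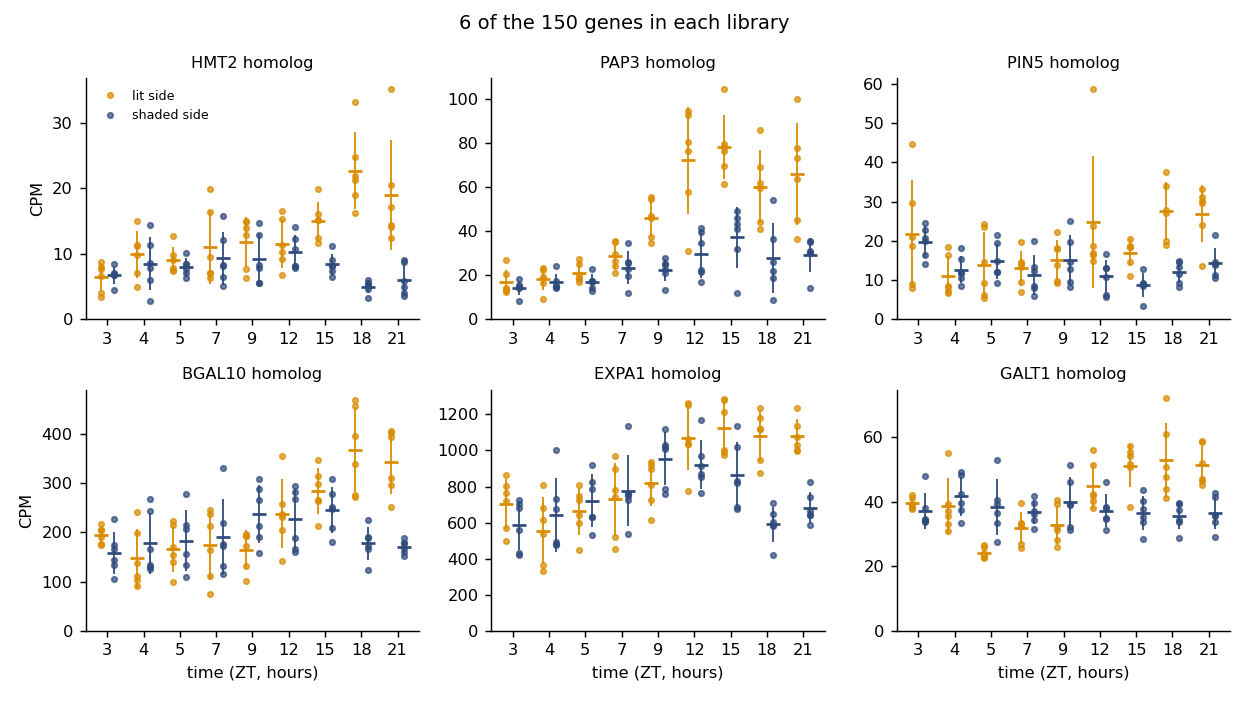
CPM of single genes in each phototropism library against hours from lights on, with lit and shaded sides as separate points. A dash marks each group mean, with a bar for the standard deviation. HMT2 lies between 3.40 and 8.77 CPM on both sides at ZT3, and its lit libraries are all above the shaded ones at ZT18 and ZT21.

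Cell wall genes were the largest of the annotated groups, with 9 of the 150. The share of such genes among all annotated genes was not counted, so this number cannot be read as high or low. The same holds for the other groups below. At ZT21, 4 of the 9 were called higher on the lit side (a median of -0.40 over the group), and the replicate block called 6. At ZT12, 1 was called, and 2 with the replicate block. Ha412HOChr03g0143601, a homolog of BGAL10, a beta-galactosidase that trims galactose from xyloglucan, held 250.7 to 406.0 CPM (median 352.1) on the lit side and 151.2 to 188.7 CPM (median 172.9) on the shaded side at ZT21. The sides did not overlap, and the difference was -0.998 ± 0.23 (SE, adjusted p = 0.00139, edgeR). Ha412HOChr09g0413391, a homolog of the wall-loosening expansin EXPA1, held 997.6 to 1238 CPM (median 1051) against 584.5 to 826.1 CPM (median 653.8), without overlap, with a difference of -0.65 ± 0.17 (adjusted p = 0.0075, edgeR).

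The other wall genes called at ZT21 were of a family of invertase or pectin methylesterase inhibitors and of a family that acts on the acetylation of wall polymers. Ha412HOChr04g0196001, of the invertase and pectin methylesterase inhibitor family, held 22.4 to 51.4 CPM (median 44.6) on the lit side and 19.9 to 35.05 CPM (median 24.4) on the shaded side. The ranges overlapped, with a difference of -0.74 (adjusted p = 0.00139, edgeR). Ha412HOChr17g0837101, a homolog of TBL39 and, like UGE4, MUR3, CBL and NIT4 below, named after its values were seen, held 11.6 to 18.6 CPM (median 15.9) against 7.01 to 14.02 CPM (median 10.4). Its difference of -0.56 (adjusted p = 0.0398, edgeR) was not called without replicate 1, 3, 4 or 5. The second gene of the inhibitor family, Ha412HOChr08g0352001, was called at ZT12 (-0.56, adjusted p = 0.00552, edgeR). It was not called at ZT21 (-0.39, adjusted p = 0.136, edgeR, and 0.0111 with the replicate block).

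Ha412HOChr13g0595591, a homolog of BXL1, a wall xylosidase and arabinofuranosidase, was the 1 wall gene called at ZT9, where the replicate block called 3 on the lit side and 1 on the shaded side. At this time its lit libraries held 49.4 to 172.1 CPM (median 73.5) and its shaded libraries 26.2 to 59.3 CPM (median 36.5), with overlap. The difference of -1.09 ± 0.37 (SE, adjusted p = 0.0211, edgeR) was not called without replicate 2, 3 or 6 (adjusted p = 0.0552 to 0.161, edgeR), and at ZT21 it was 0.06 (adjusted p = 0.98, edgeR).

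Sulfur and amino acid metabolism held 6 of the 150 genes. At ZT21, 2 were called higher on the lit side, HMT2 and Ha412HOChr06g0277601 (a SHM7 homolog, of the serine hydroxymethyltransferase family that passes single carbons from serine to folate; -0.59, adjusted p = 0.0335, edgeR; not called without replicate 1, 2, 5 or 6), and the replicate block called all 6. At ZT12, 2 others were called, and 4 of the group with the replicate block. Ha412HOChr06g0264521, a homolog of cystathionine beta-lyase (CBL), which makes the homocysteine that HMT enzymes methylate, held 65.8 to 108.6 CPM (median 77.1) on the lit side and 48.9 to 68.4 CPM (median 54.6) on the shaded side. The ranges overlapped, with a difference of -0.56 (adjusted p = 0.00253, edgeR). Ha412HOChr08g0335351, a homolog of POP2, which breaks down the amino acid GABA, held 58.7 to 99.6 CPM (median 80.7) against 42.9 to 81.5 CPM (median 56.4), with overlap and a difference of -0.51 (adjusted p = 0.00722, edgeR), not called without replicate 3 (adjusted p = 0.0512, edgeR).

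Among 4 defence genes, all were called higher on the lit side at ZT12 and 2 at ZT21 (4 and 3 with the replicate block). Ha412HOChr14g0691871, which encodes a leucine-rich repeat protein of a disease resistance family, held 4.80 to 12.4 CPM (median 8.07) on the lit side and 2.52 to 6.54 CPM (median 4.08) on the shaded side at ZT21. The ranges overlapped, and the difference of -1.003 ± 0.27 (SE, adjusted p = 0.0109, edgeR) was not called without replicate 2 (adjusted p = 0.0647, edgeR). Ha412HOChr17g0847201, a homolog of the sesquiterpene synthase TPS21, held 4.80 to 14.4 CPM (median 7.31) against 3.14 to 5.90 CPM (median 3.35) at ZT12, with a difference of -1.09 ± 0.25 (adjusted p = 0.000834, edgeR). Its call at ZT21 (-0.74, adjusted p = 0.0435, edgeR) was lost without each of replicates 1, 2, 3, 5 and 6. Ha412HOChr09g0429331, a basic chitinase homolog, had a difference of -1.85 ± 0.62 at ZT12 (adjusted p = 0.0267, edgeR), not called without replicate 2, 3 or 4.

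Of the 6 kinase and calcium signalling genes, 4 were called higher on the lit side at ZT12 and 1 at ZT21. The gene called at ZT21 was Ha412HOChr17g0826111, a leucine-rich repeat receptor-like kinase (-0.59, adjusted p = 2.32e-05, edgeR). With the replicate block the counts were 5 and 4. Of the 6 vacuolar and secreted hydrolases, 3 were called at ZT12 and 1, PAP3, at ZT21 (6 and 5 with the replicate block). One of the 3 at ZT12 was Ha412HOChr07g0293641, a homolog of gamma-VPE, a protease that matures vacuolar proteins (-0.77, adjusted p = 0.035, edgeR; lost without each replicate but the fourth).

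Of 7 transporters, 2 were called at ZT12 and 1 at ZT21 (5 at each time with the replicate block). The 1 at ZT21 was Ha412HOChr09g0402601, a homolog of YSL7, of a family that carries metals bound to nicotianamine. Its difference was -0.68 (adjusted p = 0.0462, edgeR), a call lost without each replicate but the second. Of 4 lipid genes, 2 were called at ZT12 and 1 at ZT21, Ha412HOChr01g0038901, a homolog of the fatty acyl reductase FAR2 (-0.78, adjusted p = 0.00442, edgeR). The replicate block called 3 and 2 lipid genes at these times.

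The auxin group held 2 genes. The share of auxin genes among all annotated genes was not counted, so this number cannot be read as high or low. Ha412HOChr14g0659371 is a homolog of PIN5, an auxin carrier of the endoplasmic reticulum. At ZT12 it held 14.8 to 58.7 CPM (median 17.8) on the lit side and 5.56 to 16.7 CPM (median 11.9) on the shaded side, with overlap. The difference was -1.22 ± 0.33 (SE, adjusted p = 0.00539, edgeR) and was not called without replicate 4 (-0.94, adjusted p = 0.0575, edgeR), which holds the 58.7 CPM library. At ZT21 it held 13.6 to 33.2 CPM (median 29.9) against 10.4 to 21.4 CPM (median 13.9), with a difference of -0.90 (adjusted p = 0.0867, edgeR; 0.0187 with the replicate block). Ha412HOChr07g0302221, a homolog of DAO1, a dioxygenase that oxidises auxin, was not called at any of the tested chamber times, with -0.29 at ZT21 (adjusted p = 0.119, edgeR; 0.0158 with the replicate block).

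Of 6 transcription factors, 1 was called at ZT21 and 0 at ZT12 (4 and 2 with the replicate block). Ha412HOChr17g0819881, a homolog of MYB4, a repressor of phenylpropanoid genes, held 15.01 to 23.4 CPM (median 21.1) on the lit side and 10.4 to 14.8 CPM (median 13.3) on the shaded side at ZT21, without overlap. The difference was -0.61 ± 0.17 (SE, adjusted p = 0.0164, edgeR), not called without replicate 3 or 6 (adjusted p = 0.104 and 0.0723, edgeR). Ha412HOChr09g0416451, a homolog of the cambium regulator WOX4, had -0.51 at ZT21 (adjusted p = 0.219, edgeR; 0.04 with the replicate block).

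Ha412HOChr13g0628011, a homolog of NIT4, a nitrilase that detoxifies cyanoalanine, had small differences with little spread. At ZT12 it held 14.4 to 20.8 CPM (median 18.6) on the lit side and 11.6 to 16.2 CPM (median 13.5) on the shaded side (-0.42 ± 0.10 SE, adjusted p = 0.000833, edgeR). At ZT21 it held 17.1 to 22.1 CPM (median 20.1) against 14.3 to 19.5 CPM (median 14.9; -0.34 ± 0.10, adjusted p = 0.0147, edgeR), a call lost without replicate 2 or 6 (adjusted p = 0.124 for each, edgeR). The ranges overlapped at both times.

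None of the 150 genes was in any of the 6 pathway lists set beside them, taken from gene ontology terms of a table of field rhythms. Of 19 tested genes of auxin-activated signalling, 2 were called higher on the lit side at ZT12 and 2 at ZT21, with 0 and 1 on the shaded side. Of 19 genes of the response to auxin, 2 and 1 were called on the lit side, and of 11 genes of cell wall loosening 0 and 0, with 2 on the shaded side at ZT12. Of 10 flavonol synthesis genes, 6 were called on the lit side at ZT12 and 4 at ZT21, with medians of -0.999 and -0.83. This list differed early as well, with 6 called on the lit side at ZT5 (median -0.97, 1 on the shaded side) and 6 at ZT9 (median -1.155). Of 19 lignin synthesis genes, 4 and 4 were called on the lit side, with 1 on the shaded side at ZT21. At ZT5 and at ZT9, 5 of them were called on the lit side and 1 on the shaded side. Of 31 brassinosteroid signalling genes, 4 were called on each side at ZT12, and 0 on the lit side against 2 on the shaded side at ZT21.

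Markers of the tissues in a peel were measured beside these differences. The 4 epidermal markers looked for (CER1, FDH, ML1 and PDF2) were present as 13 genes, of which none of the 12 tested was called at ZT12 or ZT21. Of the xylem markers only CESA8 and of the green cortex markers only LHCB1 could be matched, each as 2 genes. Neither marker was called at ZT12 or ZT21. Of the LHCB1 genes, 1 was called higher on the shaded side at ZT5 and 1 at ZT9 (medians of 0.44 and 0.32). Of the phloem markers only the sucrose carrier SUC2 could be matched, as 3 genes. The summed SUC2 level at ZT15 was 201.9 to 317.1 CPM (median 256.9) on the lit side and 192.7 to 225.0 CPM (median 205.0) on the shaded side. At ZT18 it was 190.1 to 237.1 CPM (median 202.0) against 151.1 to 211.8 CPM (median 161.5), and at ZT21 155.0 to 254.4 CPM (median 221.2) against 121.3 to 192.6 CPM (median 146.2). The lit median was higher at each of these times and the ranges overlapped. One SUC2 gene, Ha412HOChr04g0163651, was called higher on the lit side at ZT9 (-0.55, adjusted p = 0.046, edgeR) and ZT12 (-0.74, adjusted p = 0.00799, edgeR), and not at ZT21 (-0.50, adjusted p = 0.166, edgeR; 0.0112 with the replicate block). The other SUC2 genes were not called at these times. Ha412HOChr02g0068011 had differences of 0.12, 0.23 and -0.43 at ZT9, ZT12 and ZT21 (adjusted p = 0.699, 0.4 and 0.133, edgeR; 0.00386 at ZT21 with the replicate block), and Ha412HOChr11g0484401 had -0.78, -0.48 and 0.21 (adjusted p = 0.272, 0.597 and 0.926, edgeR; 0.034 at ZT9 with the replicate block). Ha412HOChr11g0484401 was near the floor, with a median of 0.88 CPM and at most 2.39 CPM in the chamber libraries. The other SUC2 genes had medians of 110.4 and 101.2 CPM. They differed in sign at ZT9 and ZT12, and both were lower on the shaded side at ZT21. The part of phloem markers in the result was not tested.

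Time comparisons within each side used ZT3, ZT9 and ZT21, and they share libraries with the side differences above. All genes tested, given beside the 150, did not have to average 5 CPM, and the part of expression level was not tested. From ZT3 to ZT9, 39 of the 150 genes rose and 16 fell on the lit side (26.0% and 10.7%, beside 13.3% and 13% of all genes). On the shaded side 21 rose and 26 fell (14% and 17.3%, beside 10.1% and 12.3%). From ZT9 to ZT21, 31 rose and 21 fell on the lit side (20.7% and 14%, beside 7.2% and 9.3%), and 11 rose and 27 fell on the shaded side (7.33% and 18%, beside 8.25% and 8.11%). With the replicate number as a block over all times, 43 rose and 25 fell on the lit side (28.7% and 16.7%, beside 10.8% and 12.1%). On the shaded side 21 rose and 29 fell (14% and 19.3%, beside 11.6% and 10.9%). Whether same-numbered libraries of different times deviate together was not tested, so these counts rest on the numbering alone.

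The largest changes with time were shared by both sides. Ha412HOChr05g0235011, a homolog of the cycling DOF factor CDF1, a repressor of flowering genes with a daily rhythm, held 7.30 to 15.2 CPM (median 11.2) at ZT3 and 116.0 to 158.6 CPM (median 127.2) at ZT9 on the lit side. The log2 change was 3.53 ± 0.17 (SE, adjusted p = 1.14e-33, edgeR) on the lit side and 3.19 ± 0.16 (adjusted p = 3.53e-31, edgeR) on the shaded side. TPS21 (Ha412HOChr17g0847201) went the other way, from 7.38 to 23.4 CPM (median 12.2) at ZT3 to 2.64 to 4.81 CPM (median 3.52) at ZT9 and 11.7 to 17.96 CPM (median 15.5) at ZT21 on the lit side. Its rise from ZT9 to ZT21 was 2.02 ± 0.25 on the lit side (adjusted p = 3.09e-10, edgeR) and 1.72 ± 0.26 on the shaded side (adjusted p = 1.7e-07, edgeR). MYB4 (Ha412HOChr17g0819881) held 6.32 to 9.90 CPM (median 8.07) on the lit side at ZT9 and rose by 1.29 ± 0.18 to ZT21 (adjusted p = 7.11e-09, edgeR).

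The change of the side difference from ZT9 to ZT21 was tested directly as an interaction. It moved towards the lit side in 7 of the 150 genes (4.67%, beside 2.29% of all genes) and towards the shaded side in 0 (1.39% of all genes). At an unadjusted p below 0.05 the counts were 19 and 1, DESeq2 called 7 and 0, and the replicate block 23 and 2 (15.3% and 1.33%, beside 9.21% and 8.96% of all genes). Without replicate 4 or 6 the count was 3, and without replicate 2 or 5 it was 4.

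In these 7 genes the sides changed order or drew apart. BGAL10 (Ha412HOChr03g0143601) held 100.9 to 197.7 CPM (median 182.2) on the lit side and 158.7 to 308.1 CPM (median 239.9) on the shaded side at ZT9, before the lit values given above for ZT21. The change was -1.5 ± 0.32 (SE, adjusted p = 0.00351, edgeR), with a rise of 1.05 on the lit side (adjusted p = 0.000278, edgeR) and -0.45 on the shaded side (adjusted p = 0.178, edgeR). Ha412HOChr16g0803601, which encodes a protein of the RCC1 repeat family and has no role known for certain, was higher on the shaded side without overlap at ZT9, 6.23 to 8.59 CPM (median 6.89) against 4.07 to 5.21 CPM (median 4.43). At ZT21 it held 7.24 to 14.4 CPM (median 10.3) on the lit side and 2.58 to 7.91 CPM (median 5.46) on the shaded side, and its change was -1.55 ± 0.37 (adjusted p = 0.00927, edgeR).

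Ha412HOChr08g0330551, a homolog of GALT1, a galactosyltransferase of N-glycans, held 22.6 to 26.6 CPM (median 23.7) on the lit side and 27.4 to 53.1 CPM (median 37.9) on the shaded side at ZT5, a difference of 0.66 ± 0.13 towards the shaded side (SE, adjusted p = 5.34e-05, edgeR). At ZT21 it held 45.3 to 58.8 CPM (median 49.5) on the lit side and 29.2 to 42.7 CPM (median 35.7) on the shaded side (-0.48 ± 0.13, adjusted p = 0.00685, edgeR). The sides did not overlap at either time, and they were in opposite order. Its change from ZT9 to ZT21 was -0.73 (adjusted p = 0.0108, edgeR).

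For EXPA1 (Ha412HOChr09g0413391), the lit libraries held 616.4 to 934.0 CPM (median 855.4) and the shaded ones 756.3 to 1121 CPM (median 1015) at ZT9. The change was -0.84 ± 0.24 (SE, adjusted p = 0.0307, edgeR), a call that was lost without each of replicates 1, 2, 4, 5 and 6. HMT2 (Ha412HOChr01g0003611) changed by -1.29 (adjusted p = 0.0409, edgeR), which was not called when any 1 of the 6 replicates was left out (adjusted p = 0.061 to 0.145, edgeR). Ha412HOChr15g0740291 (-0.79, adjusted p = 0.00818, edgeR; not called without replicate 6) and Ha412HOChr16g0771471 (-0.69, adjusted p = 0.0329, edgeR) completed the 7.

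The field experiment, whose libraries did not enter the choice, asked how the same genes compare across stems that follow the sun. All genes tested, given beside them, did not have to average 5 CPM as the 150 did, and the part of expression level was not tested. At ZT16, 25 of the 150 genes were called higher on the west side and 1 on the east side (16.7% and 0.667%, beside 3.43% and 2.35% of 34315 genes tested). The median log2 difference, west minus east, was 0.04, beside -0.01 over all genes, and 86 of the 150 were above 0. With the first day alone 16 were called and with the second day alone 13. At ZT20, 6 were called higher on the west side and 0 on the east side (4.0%, beside 2.63% and 0.918% of all genes), and without replicate 2 none was. At an unadjusted p below 0.05, 20 were higher on the west side and 2 on the east side at ZT20, and DESeq2 called 12 in all.

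At the other field times 0 to 4 genes were called. At ZT8, 4 were higher on the east side (2.67%, beside 0.866%) and 0 on the west side (0.708% of all genes), and at ZT12, 3 were higher on the west side (2.0%, beside 0.635%) and 1 on the east side (0.667%, beside 1.15%). Without replicate 1 or 2 the count at ZT8 was 1. At ZT0 and ZT4 none was called by edgeR and 1 by DESeq2 at each, beside 0.0321% and 0.0233% of all genes on the west and east sides at ZT0 and 0.0233% and 0.128% at ZT4. The counts at an unadjusted p below 0.05 were 20 and 12. No gene of the 150 had a side difference that changed between the days at any of the 6 times (edgeR; 1 to 10 at an unadjusted p below 0.05; beside 0%, 0.00291% or 0.00583% of all genes).

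**Figure D5:**
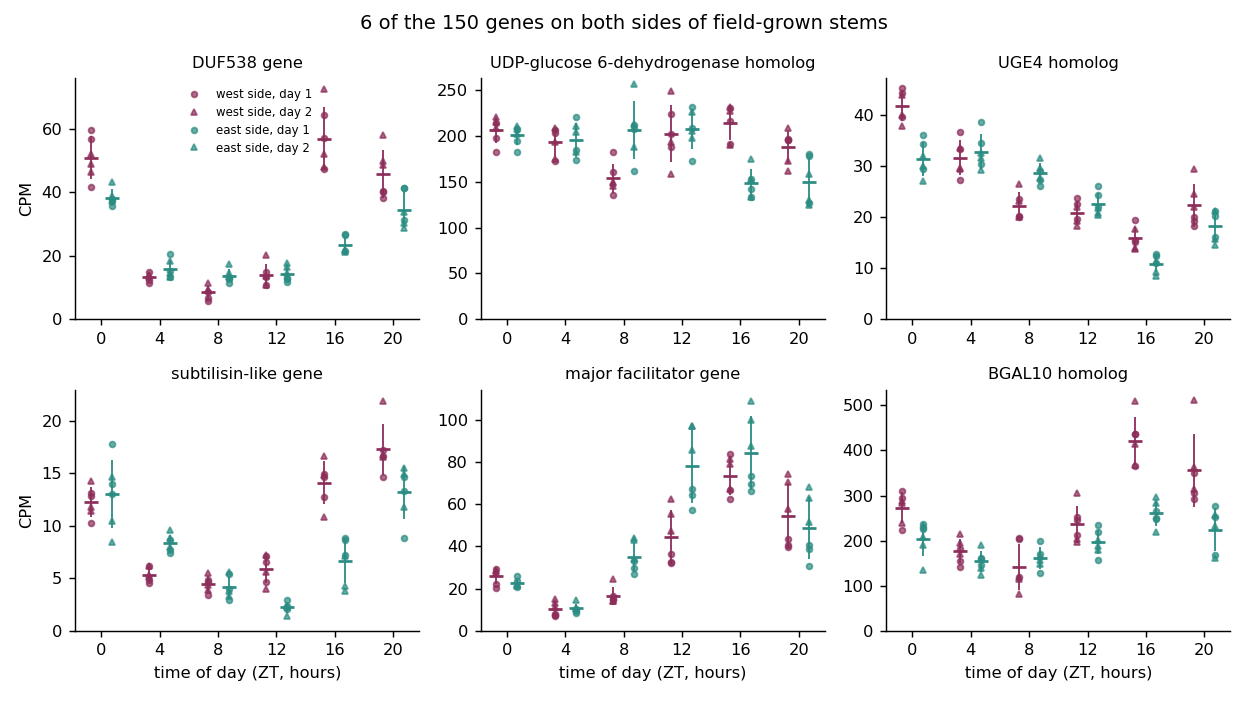
CPM of single genes in each field library against the time of day in ZT, with east and west sides as separate points. A dash marks each group mean, with a bar for the standard deviation. BGAL10 lies between 366.2 and 509.5 CPM on the west side and between 218.5 and 297.5 CPM on the east side at ZT16.

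Cell wall genes made up 5 of the 25 called higher on the west side at ZT16, out of 9 wall genes, with 0 on the east side. How many of all annotated wall genes were called at this time was not counted. BGAL10 (Ha412HOChr03g0143601) held 366.2 to 509.5 CPM (median 424.8) on the west side and 218.5 to 297.5 CPM (median 258.1) on the east side, without overlap. The log2 difference, west minus east, was 0.69 ± 0.15 (SE, adjusted p = 0.00169, edgeR), not called without replicate 3 (adjusted p = 0.0523, edgeR) or on the second day alone (0.079). At ZT20 it held 292.7 to 512.5 CPM (median 332.3) against 161.9 to 276.1 CPM (median 241.6), a difference of 0.67 ± 0.15 (adjusted p = 0.00455, edgeR), lost on the first day alone and without replicate 2 or 3.

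The other wall genes called at ZT16 make or use sugar precursors of the wall, or are of the invertase and pectin methylesterase inhibitor family. Ha412HOChr09g0412731, a homolog of UDP-glucose 6-dehydrogenase (UGD), which makes UDP-glucuronic acid, held 190.6 to 232.0 CPM (median 221.7) on the west side and 133.1 to 175.2 CPM (median 147.4) on the east side, without overlap (0.53 ± 0.09 SE, adjusted p = 5.55e-05, edgeR). Ha412HOChr03g0135951, a homolog of UGE4, which makes UDP-galactose, held 13.6 to 19.3 CPM (median 15.4) against 8.39 to 12.7 CPM (median 11.2), without overlap (0.54 ± 0.10, adjusted p = 0.000289, edgeR). Ha412HOChr01g0024491, a homolog of MUR3, which adds galactose to xyloglucan, held 25.1 to 38.0 CPM (median 30.8) against 14.7 to 23.0 CPM (median 20.6), without overlap (0.64 ± 0.14, adjusted p = 0.00151, edgeR), a call lost on the first day alone and without replicate 1 or 3.

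The fifth wall gene, Ha412HOChr08g0352001 of this inhibitor family, held 42.6 to 54.9 CPM (median 43.4) on the west side and 25.5 to 37.1 CPM (median 29.8) on the east side, without overlap. Its difference of 0.57 ± 0.13 (SE, adjusted p = 0.00295, edgeR) was not called on either day alone or without replicate 1. The other gene of this family, Ha412HOChr04g0196001, was called at ZT20 only (0.62, adjusted p = 0.0116, edgeR) and lost this call without each of the 3 replicates. EXPA1 (Ha412HOChr09g0413391) was not called at ZT16 (0.30, adjusted p = 0.155, edgeR).

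The largest field differences at ZT16 were outside the wall genes. Ha412HOChr06g0270351, of a protein family of unknown function (DUF538), held 47.4 to 72.6 CPM (median 54.7) on the west side and 21.2 to 26.8 CPM (median 21.9) on the east side, without overlap. Its difference was 1.28 ± 0.13 (SE, adjusted p = 1.05e-10, edgeR). Ha412HOChr17g0836001, of the WSD1-like acyltransferases that form wax esters, held 21.9 to 44.5 CPM (median 31.3) against 13.2 to 20.01 CPM (median 13.8), without overlap (1.15 ± 0.20, adjusted p = 4.09e-05, edgeR).

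Ha412HOChr02g0058621, a subtilisin-like protease, held 10.8 to 16.6 CPM (median 14.7) on the west side and 3.81 to 8.86 CPM (median 7.18) on the east side at ZT16 (1.07 ± 0.16 SE, adjusted p = 3.15e-06, edgeR). At ZT12 it held 3.99 to 7.17 CPM (median 6.06) against 1.38 to 2.91 CPM (median 2.32; 1.39 ± 0.18, adjusted p = 2.57e-07, edgeR). The sides did not overlap at either time.

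Several genes called at ZT21 in the chamber were also called at ZT16 in the field. GALT1 (Ha412HOChr08g0330551) held 51.7 to 68.5 CPM (median 64.8) on the west side and 29.5 to 41.7 CPM (median 38.5) on the east side, without overlap (0.75 ± 0.09 SE, adjusted p = 7.28e-09, edgeR). HMT2 (Ha412HOChr01g0003611) held 7.35 to 10.2 CPM (median 9.20) against 4.67 to 6.90 CPM (median 5.61), without overlap (0.68 ± 0.17, adjusted p = 0.00659, edgeR), and was not called on either day alone or without any 1 replicate. MYB4 (Ha412HOChr17g0819881) held 16.5 to 20.9 CPM (median 17.9) against 12.3 to 14.4 CPM (median 13.3), without overlap (0.46, adjusted p = 0.0021, edgeR), a call lost on the second day alone (adjusted p = 0.291, edgeR) and without replicate 3 (0.0526). PAP3 (Ha412HOChr08g0348621) was not called, with -0.33 (adjusted p = 0.255, edgeR).

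The auxin-oxidising DAO1 homolog Ha412HOChr07g0302221 was called in the field at ZT12, where it held 27.7 to 29.6 CPM (median 29.0) on the west side and 18.9 to 23.7 CPM (median 21.7) on the east side. The sides did not overlap, with a difference of 0.43 ± 0.08 (SE, adjusted p = 0.000395, edgeR), not called on the second day alone (adjusted p = 0.167, edgeR) or without replicate 3 (0.0702). It was also called at ZT16 (0.32, adjusted p = 0.00582, edgeR; lost on either day alone and without replicate 3). The PIN5 homolog Ha412HOChr14g0659371 had a difference of 0.02 at ZT16 (adjusted p = 0.993, edgeR).

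Some genes were higher on the east side. Ha412HOChr11g0511461, a member of the major facilitator superfamily of membrane transporters, held 26.8 to 43.95 CPM (median 33.7) on the east side and 13.9 to 24.7 CPM (median 14.8) on the west side at ZT8, without overlap (-1.08 ± 0.19 SE, adjusted p = 0.000141, edgeR). Ha412HOChr06g0270351 changed its side: at ZT8 it held 11.4 to 17.4 CPM (median 13.1) on the east side and 5.74 to 11.5 CPM (median 8.74) on the west side, with overlap (-0.70 ± 0.14, adjusted p = 0.0018, edgeR; not called on the second day alone or without replicate 1 or 2). UGD (Ha412HOChr09g0412731) likewise held 161.5 to 256.4 CPM (median 209.8) on the east side and 136.1 to 182.4 CPM (median 149.1) on the west side at ZT8 (-0.42 ± 0.09, adjusted p = 0.00485, edgeR; not called on either day alone or without replicate 1 or 2). The GABA-degrading POP2 homolog Ha412HOChr08g0335351 was the gene called higher on the east side at ZT16, with 62.9 to 75.7 CPM (median 69.0) against 50.2 to 63.0 CPM (median 55.8; -0.31 ± 0.09, adjusted p = 0.0207, edgeR). That call was lost on the second day alone and without each of the 3 replicates.

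At ZT16 the green cortex marker LHCB1 moved with the side in the opposite direction, with a summed level of 10.9 to 20.8 CPM (median 16.1) on the west side and 23.0 to 47.0 CPM (median 29.3) on the east side. LHCB1 also changed strongly with the time of day. Its summed east median was 660.8 CPM at ZT4 and 8.6 CPM at ZT20, so its level is not a measure of the amount of green cortex alone. Summed SUC2 was 206.7 to 322.6 CPM (median 248.4) on the west side and 257.6 to 342.0 CPM (median 305.8) on the east side. The summed epidermal markers were 240.8 to 398.6 CPM (median 305.5) on the west side and 228.8 to 299.3 CPM (median 284.0) on the east side. The part of these markers in the field result was not tested.

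Most of the 150 genes had a daily rhythm in the field. A cosine with a period of 24 h was called (q below 0.05) for 126 on the east side and 121 on the west side, beside 74% and 69.6% of all genes tested. The median R squared was 0.55 and 0.52, beside 0.39 and 0.34 over all genes. The 150 genes had to average 5 CPM in the chamber and all genes tested did not. The part of expression level in this difference was not tested. The times of the peak, called the acrophase, were spread over the day. On the east side 14 to 28 of the 126 genes called fell in each 4 h interval, and on the west side 15 to 27 of the 121. The best fit was that of Ha412HOChr12g0544931, a homolog of the sphingolipid hydroxylase SBH2, with acrophases at 12.9 h on the east side and 13.7 h on the west side. The CYP706A4 homolog Ha412HOChr06g0246541 peaked at 11.7 h on the east side and 11.8 h on the west side.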

How the data were processed

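Stem peels were sequenced as 50-base single-end reads. Per the methods and the submitters' processing notes, the authors estimated transcript abundance with Salmon (1.4.0), with Cufflinks (2.2.1) and edgeR (version not given) also named. The deposited tables hold estimated counts per gene, which were rounded to whole numbers here, and a signal of normalized CPM that the authors scaled with edgeR's TMM method. Counting by estimated abundance can split reads between near-identical genes. The CPM values were used only to choose the genes and to show levels. All columns were matched to samples by name.

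Members and gene lists were chosen with earlier results of these data known. Counts were tested with edgeR 4.0.16 (R 4.3.3) by the quasi-likelihood test with TMM scaling, 1 coefficient per side and time over all libraries of an experiment, a filter that kept genes reaching 10 counts in 6 (phototropism) or 3 (field) libraries, and Benjamini-Hochberg adjustment over all genes. In the field the 2 days were combined. All 150 genes passed both filters. Genes were named by rule: the 10 lowest at ZT15 and ZT18, every auxin gene, up to 10 called at ZT21, up to 3 or 5 per direction in the other comparisons, up to 3 per annotation group, and the 5 best cosine fits; exceptions are said. The sulfur, hydrolase and P450 groups were added after values were seen. Names came from annotation tables of 11587 genes, which paired 90 of the 150 with a row. Libraries of a group come from separate pooled plants, and p-values measure the spread between them. Methods list one time fewer for phototropism than the sample labels; the labels were followed.

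Same-numbered libraries of the sides at a time were compared by the correlation of their deviations from the group means. In phototropism all 54 pairs exceeded 0.1 (0.358 to 0.902, median 0.62). Side differences are therefore also given with each same-time pair as a block, where this moved a count. Time comparisons within a side used a block for each replicate number over all times, which this check does not cover. The pairing comes from the sample numbers, and the methods do not use it. Alternatives were DESeq2 1.42.0, no filter, only the libraries compared, each field day alone, the block, each replicate left out, and other settings of the choice. Counts were simulated for the libraries of ZT9 and ZT21 (phototropism) or ZT12 and ZT16 (field) only. They were drawn independently, so without the pairing of the sides. A fit to these at ZT21 (32644 genes) recovered 33 of 100 genes changed by 0.5 on the log2 scale and 80 of 100 changed by 1. At ZT16 in the field (34315 genes) the numbers were 58 and 95. The fits reported above used all libraries of an experiment, which the simulation did not cover. Tables of the authors' own comparisons were not used.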

Additional observations from a re-analysis of the deposited data

Results flagged for a closer look

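Chance marks about 1 in 20 groups of 6 libraries by the spacing of the highest or lowest value. Of 168 groups looked at, 16 had such a library.

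In the chamber these were the lit library of replicate 5 at ZT21 for HMT2 (Ha412HOChr01g0003611), at 35.15 CPM; the shaded library of replicate 6 at ZT21 for PAP3 (Ha412HOChr08g0348621), lowest at 13.95 CPM; and, for PIN5 (Ha412HOChr14g0659371), the lit library of replicate 4 at ZT12, at 58.68 CPM, and the shaded library of replicate 4 at ZT21, at 21.43 CPM. The shaded library of replicate 2 at ZT9 was lowest for Ha412HOChr06g0246541, at 6.294 CPM. The lit library of replicate 6 at ZT9 was highest for BXL1 (Ha412HOChr13g0595591), at 172.1 CPM, and the lit library of replicate 3 at ZT3 for TPS21 (Ha412HOChr17g0847201), at 23.45 CPM. At ZT21, shaded replicate 5 was highest for NIT4 (Ha412HOChr13g0628011), at 19.54 CPM, and for the inhibitor family gene Ha412HOChr04g0196001, at 35.05 CPM. Lit replicate 6 was lowest for the latter, at 22.43 CPM. At ZT12, replicate 4 was highest for gamma-VPE (Ha412HOChr07g0293641) on both sides, at 375.8 CPM on the lit side and 251.8 CPM on the shaded one.

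In the field, a west library at ZT8 of the second day was highest for Ha412HOChr11g0511461, at 24.7 CPM. A west library at ZT20 of the second day was highest for BGAL10 (Ha412HOChr03g0143601), at 512.5 CPM, and an east library at ZT16 of the first day for Ha412HOChr17g0836001, at 20.01 CPM. A west library at ZT16 of the second day was highest for DAO1 (Ha412HOChr07g0302221), at 32.28 CPM.

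The side difference changed between ZT9 and ZT21, by the test of the interaction, in 7 genes. The log2 changes, shaded minus lit, were -1.55 for Ha412HOChr16g0803601, -1.5004 for BGAL10 (Ha412HOChr03g0143601), -1.29 for HMT2 (Ha412HOChr01g0003611), -0.84 for EXPA1 (Ha412HOChr09g0413391), -0.79 for Ha412HOChr15g0740291, -0.73 for GALT1 (Ha412HOChr08g0330551) and -0.69 for Ha412HOChr16g0771471, each with an adjusted p between 0.00351 and 0.0409 (edgeR).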

How the results depend on the processing

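No result changed sign under any alternative run. The cause of each change below was not tested, beyond the smaller number of libraries where some were left out. The choice of genes kept 127 of the 150 with a pseudocount of 0.1, 117 when the genes had to average 10 CPM, and 81 when they had to average 1 CPM.

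With the replicate block in the chamber, 25 of the 150 were called at ZT5 (7 without it), 58 at ZT9 (20), 79 at ZT12 (37), 91 at ZT21 (24) and 25 for the change of the side difference (7). Leaving out 1 replicate gave 4 to 8 at ZT5, 9 to 17 at ZT9, 24 to 31 at ZT12, 18 to 23 at ZT21 and 3 to 5 for the change. With only the ZT5 libraries, 4 were called at ZT5.

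In the field, same-numbered libraries correlated between 0.0863 and 0.594 (35 of 36 pairs over 0.1, and 35 best with their own number). With the replicate block 8 were called at ZT0 (0 without it), 2 at ZT4 (0), 12 at ZT8 (4), 24 at ZT12 (4), 38 at ZT16 (26) and 18 at ZT20 (6). DESeq2 called 1 at ZT0, 1 at ZT4 and 12 at ZT20. The first day alone gave 2 at ZT8, 16 at ZT16 and 0 at ZT20, and the second day alone 13 at ZT16. Leaving out 1 replicate gave 1 to 3 at ZT8, 12 to 17 at ZT16 and 0 to 4 at ZT20.

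Of 1034 alternative values for the called genes shown in the text, 901 kept their call and direction and 133 lost the call. In the simulation of the ZT9 and ZT21 chamber libraries alone, without pairing of the sides, log2 changes of 0.5 were recovered for 33 of 100 genes. Changes of 1 were recovered for 80 of 100.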
